A study of Mus musculus with 3 samples.

Results

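The 10 genes described here, Alb, Afp, Apoa1, Apoa2, Ttr, Fga, Fgb, Rbp4, Gc and Serpina1b, encode proteins that hepatocytes secrete into the blood. They were taken as a fixed list of symbols and matched to the 32285 features of the count matrices, where all 10 were found. The mice, of strain C57BL6 and 18 weeks old, were MYC-ON animals with liver tumours, from which living CD45+ cells were sorted and profiled in 10x 3′ v3 droplet libraries. There was 1 library from DU101 treated mice, 1 from DU102 treated mice and 1 from control mice, whose data carry the name DMSO. The sources used here do not give the identity, dose or timing of DU101 and DU102, what control mice received, the promoter that drives MYC, or the number and sex of the animals. White blood cells carry CD45, the product of Ptprc, so tumour cells are not what the sort selects. The genes were followed in 2 kinds of barcode. Tumour cells were barcodes with at least 10000 UMIs (counted RNA molecules), at most 2 Ptprc UMIs and at least 50 UMIs of Alb, Afp, Apoa1 and Ttr together, and there were 61 of 15686 in DU101, 115 of 13650 in DU102 and 62 of 12639 in control. Immune barcodes were gated by marker genes into 15 types and numbered 7964 in DU101, 6311 in DU102 and 5895 in control. RNA of the 10 genes in immune barcodes is called carry-over RNA below, which is a name and not a tested route.

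Hepatocytes make most of the proteins of blood plasma, and their secretory genes are among the most abundant RNAs of the liver. Alb and Gc belong to the albumin family with Afp, which the fetal liver makes beside albumin, which falls after birth and which liver tumours often make again. Apoa1 and Apoa2 form the protein shell of high-density lipoprotein, Ttr and Rbp4 carry thyroid hormone and retinol, Fga and Fgb are chains of the clotting protein fibrinogen, and Serpina1b is a mouse form of the protease inhibitor alpha-1-antitrypsin. When tissue is dissociated, RNA of broken cells enters the suspension and can be captured in droplets with other cells, and abundant RNAs are the easiest to see there.

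Alb lies at chr5:90460870-90476602 and Afp at chr5:90490714-90508907, with 14111 bases between them, and Gc lies at chr5:89417511-89457898, 1002971 bases before Alb (RefSeq, GRCm38.p6). Fga at chr3:83026153-83033627 and Fgb at chr3:83042246-83049863 are 8618 bases apart. Apoa2 is at chr1:171221564-171226379, Apoa1 at chr9:46228630-46230469, Serpina1b at chr12:103728156-103738189 and Rbp4 at chr19:38116620-38125321. The promoter windows of the 2 neighbouring pairs, whose members had the 2 highest cell-to-cell correlations in each library, run from 250 bases before to 50 bases after each gene's start. They are shown 5′ to 3′ on the gene's strand, with GTTAAT or its other strand ATTAAC, a half-site of the liver factor HNF1, in capitals.
Alb, chr5:90460620-90460919, plus strand: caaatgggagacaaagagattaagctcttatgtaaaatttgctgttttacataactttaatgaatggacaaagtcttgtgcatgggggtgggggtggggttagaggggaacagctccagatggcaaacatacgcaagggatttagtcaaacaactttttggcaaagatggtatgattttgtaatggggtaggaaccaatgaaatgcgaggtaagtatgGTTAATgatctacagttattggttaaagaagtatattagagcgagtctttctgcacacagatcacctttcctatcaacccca
Afp, chr5:90490464-90490763, plus strand: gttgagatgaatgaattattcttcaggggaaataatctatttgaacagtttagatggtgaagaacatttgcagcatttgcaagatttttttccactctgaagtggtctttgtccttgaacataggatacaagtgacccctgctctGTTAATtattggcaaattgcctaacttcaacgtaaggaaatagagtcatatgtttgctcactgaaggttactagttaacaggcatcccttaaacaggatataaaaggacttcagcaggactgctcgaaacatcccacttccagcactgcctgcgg
Fga, chr3:83025903-83026202, plus strand: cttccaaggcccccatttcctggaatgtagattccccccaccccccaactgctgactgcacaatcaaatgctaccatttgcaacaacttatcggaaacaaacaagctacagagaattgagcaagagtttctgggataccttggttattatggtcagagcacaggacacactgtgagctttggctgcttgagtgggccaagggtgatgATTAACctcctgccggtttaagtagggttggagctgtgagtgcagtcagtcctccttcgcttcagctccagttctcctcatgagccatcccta
Fgb, chr3:83049814-83050113, minus strand: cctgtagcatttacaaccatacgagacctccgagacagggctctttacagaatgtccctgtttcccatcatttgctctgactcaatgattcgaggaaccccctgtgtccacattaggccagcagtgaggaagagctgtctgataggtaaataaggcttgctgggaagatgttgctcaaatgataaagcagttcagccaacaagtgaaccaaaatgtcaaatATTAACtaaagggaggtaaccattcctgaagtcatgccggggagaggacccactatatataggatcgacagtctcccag
The match begins 32 bases before the start in Alb, 105 in Afp, 43 in Fga and 29 in Fgb. Windows were at hand for 9 of the 10 genes, with 2 each for Apoa2 and Rbp4. A match in either window counted for the gene, while the shares of all windows count each window alone. GTTAAT on either strand was in 6 of these 9, adding Gc at 52 bases and Serpina1b at 26 bases before the start, against 7.10% of all 32851 windows. TTGCNNAA, a form bound by C/EBP factors, was in 7 of 9 (Alb, Afp, Apoa2, Fga, Fgb, Rbp4 and Serpina1b) against 10.8% of all windows, and TATAAA was in 3 of 9 (Afp, Apoa2 and Rbp4) against 13.6%. The forkhead form TGTTTAC was in Apoa2 and Rbp4 (3.65% of all windows). In Apoa2 the TGTTTAC and TATAAA matches lay in the window that begins at chr1:171224804, inside the gene. In Rbp4 they lay in different windows. The HNF4 forms CAAAGTCCA and CAAAGGTCA and the palindrome TTGCGCAA, which overlaps TTGCNNAA, were in none of the 9, with 0.475%, 0.478% and 0.183% of all windows. All 7 motifs were read on both strands, and a match describes letters and not binding.

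Total depth was 106604935 UMIs in DU101, 96817875 in DU102 and 91013198 in control. Each library had a lowest barcode of 500 UMIs, so emptier droplets are not in the matrices used here. Between 37 and 57 barcodes were shared by each pair of libraries, 0 by all 3 and 0 among tumour cells. Each group is 1 library, so differences between groups have no replicate check and were not tested. Intervals in brackets are exact 95% intervals, Poisson for counts and their ratios and Clopper-Pearson for shares, and cover counting error only. By size, a gene or type was called higher or lower where its ratio reached 1.5-fold and the interval left out 1, with genes needing at least 30 UMIs over both libraries.

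In tumour cells the 10 genes made up 1.79% of all UMIs in DU101, 2.49% in DU102 and 1.88% in control. In single cells that share was between 0.312 and 10.8% in DU101, 0.340 and 11.04% in DU102 and 0.497 and 6.32% in control. Tumour cells were deep, with medians of 44241, 29709 and 55034 UMIs in DU101, DU102 and control. They held 64.7% of all UMIs of the 10 genes in DU101, 73.99% in DU102 and 75.5% in control, while being 0.389% (0.298 to 0.499), 0.842% (0.696 to 1.01) and 0.491% (0.376 to 0.628) of barcodes. The gate itself asks for Alb, Afp, Apoa1 and Ttr, so the presence of these 4 is no finding, while the other 6 were not used. Cells just inside that gate, with 50 to 74 UMIs of the 4 genes, numbered 8, 8 and 5, with medians of 138.5, 119 and 131 UMIs of the 10 genes. Cells just outside, with 25 to 49, numbered 15, 13 and 9, with medians of 101, 100 and 101.

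The label of tumour cells was checked against other genes. Krt8, a keratin of hepatocytes and other epithelia, had UMIs in 61 of 61, 113 of 115 and 59 of 62 cells of DU101, DU102 and control. H19, an RNA of fetal liver, was at 3967, 4211 and 6369 CPM, the depth-scaled count, in these libraries. Stellate or fibroblast and endothelial marker lists had a median sum of 0 in all 3, and 1 control cell reached 33 endothelial UMIs. Some other lists were not at 0. Cholangiocyte (bile duct) markers had a median sum of 3 in each library, with 1 of 4 in at least 50% of the cells. The pDC (plasmacytoid dendritic cell) list had 1 of 5 markers in at least 50% of the cells in each library. For plasma cell markers this was 2 of 5 in DU101 and 1 of 5 in DU102 and in control. For neutrophil markers it was 2 of 5 in each. The source of this RNA was not tested. Of 6 macrophage markers, 1, Apoe, which hepatocytes also make, was in at least 50% of the cells in each library. Cyp2e1 and Cyp2c29, cytochromes of mature hepatocytes, had 0 UMIs in every tumour cell, which allows up to 1.05 CPM in DU101, 0.641 in DU102 and 0.906 in control. Mup3, Mug1, Serpina3k and Saa2, other secreted proteins of adult mouse liver, were also at 0. The cells thus carried fetal and epithelial liver RNA without these markers of mature hepatocytes. Xist was found in 0 of 61, 0 of 115 and 32 of 62 cells and Y-linked RNA in 46, 102 and 27, so control held cells of both sexes, and DU101 and DU102 cells with Y-linked RNA and none with Xist.

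Within the albumin family, Afp exceeded Alb. Afp was at 3102, 4311 and 3222 CPM in DU101, DU102 and control, and Alb at 1629.6, 2302 and 1551 CPM. Cell by cell, Afp had more UMIs than Alb in 58 of 61 DU101, 99 of 115 DU102 and 57 of 62 control cells. Gc, which binds vitamin D, was at 899.3, 977.6 and 954.1 CPM in the same order, the closest set of values among the 10 genes. In each of the 3 libraries Alb was the most unevenly spread, with 71.4% of its UMIs in the top 10 cells of DU101, 50.2% in DU102 and 66.9% in control. Gc was the most evenly spread, with 39.2, 27.8 and 40.2% in its top 10 cells. Alb had a median of 17 UMIs per cell in DU101 (0 to 497), 34 in DU102 (0 to 1976) and 26.5 in control (1 to 607). Most cells thus held few Alb UMIs and a minority held many, in each library.

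The carriers and apolipoproteins were the next group. Ttr was the highest of the 10 genes in each library, at 4209, 5002 and 3428 CPM in DU101, DU102 and control. Its partner in plasma, Rbp4, was at 1154, 2194 and 1562 CPM, and was found in all 238 tumour cells. Apoa2 was at 2979, 3298 and 2916 CPM, within a narrow range. Apoa1 ranged more widely, at 1853, 3572 and 2504 CPM, lowest in DU101 and highest in DU102.

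The fibrinogen chains and the protease inhibitor were the last group, and of these Fgb was above Gc in each library. Fgb was at 1134, 1625 and 1365 CPM in DU101, DU102 and control, and Fga at 401.4, 609.7 and 699.8 CPM. Serpina1b was at 548.7, 993.2 and 622.5 CPM, and its values are uncertain because Serpina1a, Serpina1c, Serpina1d and Serpina1e are near-identical copies that share reads with it. Counting of 3′ molecules does not scale with gene length, so these levels can be ordered. The order began with Ttr and Afp in all 3 libraries. Of 9 neighbouring pairs, the intervals overlapped for Afp with Apoa2 and Rbp4 with Fgb in DU101, Serpina1b with Gc in DU102 and Rbp4 with Alb in control. All other neighbours differed beyond counting error, which is far smaller than the spread between cells.

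**Figure D1:**
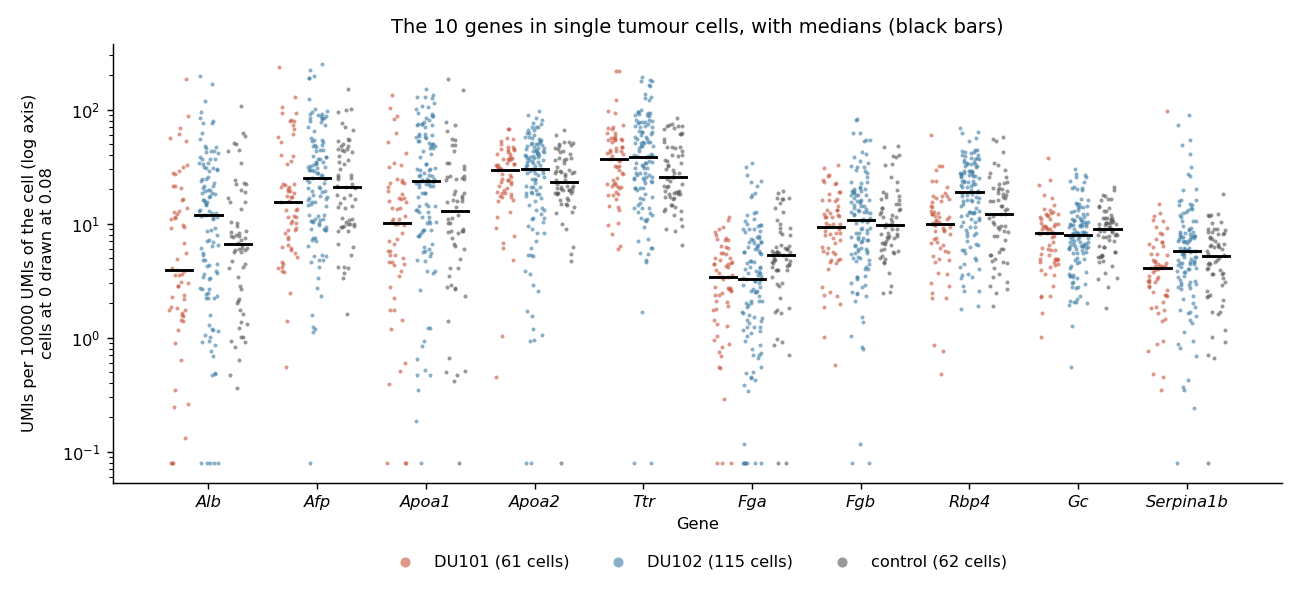
UMIs of each of the 10 genes per 10000 UMIs of the cell in single tumour cells (log axis, cells at 0 drawn at 0.08), in 61 DU101, 115 DU102 and 62 control cells, with black bars at medians. The cell-to-cell spread of Alb, from 0 to 187 in DU101, 0 to 195 in DU102 and 0.365 to 107 in control, is wider than the distance between the 3 medians, and Gc shows the narrowest clouds.

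Summed over tumour cells, DU102 was highest. The 10 genes together were at 24885 CPM in DU102 against 18824 in control, a ratio of 1.32 (1.31 to 1.33), and at 17910 CPM in DU101, a ratio to control of 0.951 (0.940 to 0.963). DU101 over DU102 was 0.720 (0.712 to 0.727). None of these sums passed 1.5-fold. DU102 cells were shallower, and with mean UMIs per cell, 1013 in DU102 and 1005 in control, the ratio was 1.01, and in cells with no Ptprc UMI the CPM ratio was 1.10. Limiting all libraries to deeper cells left it at 1.32, and admitting shallower ones at 1.33. The part of these differences in the ratio was not tested. Against the 21 control tumour cells that had RNA of Y-linked genes but not of Xist, the ratios were 0.909 for DU101 and 1.26 for DU102. Within control, the 10 genes were at 19694 CPM in these 21 cells and 15452 CPM in the 26 cells with Xist alone.

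Gene by gene, 3 of the 10 ratios of DU101 over control were above 1 and 7 below. By size, 0 counted as higher and 1 as lower, where 2.87% and 8.2% of 9193 genes did so. That gene was Fga at 0.574 (0.534 to 0.616), with medians of 3.38 UMIs per 10000 in DU101 cells and 5.31 in control cells, and its ratio lay between 0.502 and 0.616 under the alternatives tried. Ttr had the highest ratio at 1.23 (1.20 to 1.26), and Apoa1 and Rbp4 were at 0.740 (0.715 to 0.766) and 0.739 (0.707 to 0.772). For DU102 over control, 9 ratios were above 1 and 1, Fga at 0.871 (0.824 to 0.921), was below. By size 1 gene was higher and 0 were lower, against 4.95% and 5.91% of 9767 genes. The higher gene was Serpina1b at 1.595 (1.52 to 1.68), at 1.40 without the top cell of each library, at 1.35 in cells with no Ptprc UMI and at 1.22 as mean UMIs per cell, all under 1.5-fold. Next came Alb at 1.48 (1.44 to 1.53), Ttr at 1.46 (1.43 to 1.49) and Apoa1 at 1.43 (1.39 to 1.46). The shares of members past the threshold in these 2 comparisons, 1 of 10 each, are close to the shares of all genes.

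Between the treated libraries, all 10 ratios of DU101 over DU102 were below 1. By size 0 were higher and 4 lower, against 3.66% and 8.5% of 9562 genes. The lower ones were Apoa1 at 0.519 (0.503 to 0.535), Rbp4 at 0.526 (0.506 to 0.547), Serpina1b at 0.552 (0.521 to 0.585) and Fga at 0.658 (0.614 to 0.705). Gc and Apoa2 differed least, at 0.920 (0.876 to 0.966) and 0.903 (0.880 to 0.928). In medians per cell the order was not always the same: Fga had 3.38 UMIs per 10000 in DU101 cells and 3.26 in DU102 cells, a ratio of 1.04. Fga was thus lower in DU101 in the sum and not in the median cell. Alb moved most: its median was 3.95 UMIs per 10000 in DU101 cells, 12.0 in DU102 cells and 6.59 in control cells. In medians DU101 over control was thus 0.5996 for Alb, against 1.05 in the sum, and DU101 over DU102 was 0.331, against 0.708.

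RNA of other cells differed between the same tumour cells. S100a8 and S100a9, alarmins of neutrophils, had medians of 19 UMIs per tumour cell in DU101 (2 to 4357), 18 in DU102 (3 to 114) and 4 in control (0 to 56). Immunoglobulin RNA (Igkc, Jchain and Ighm) had medians of 22, 2 and 2, with 1 control cell at 11283. Haemoglobin RNA was in 9 of 61, 71 of 115 and 36 of 62 cells, while Alas2 had 0 UMIs in every tumour cell. The part of this RNA in the values of the 10 genes was not tested. The 10 genes had medians of 581 UMIs per tumour cell in DU101 (89 to 3132), 689 in DU102 (77 to 11164) and 663.5 in control (101 to 3951).

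From cell to cell the 10 genes mostly moved together. Of 45 gene pairs, the Spearman correlation of UMIs per 10000 was above 0 in 45 pairs in DU101, 44 in DU102 and 40 in control, with medians of 0.580, 0.479 and 0.458. These are descriptions over 61, 115 and 62 cells that share a library, differ in depth and were gated on 4 of the genes. Fga with Fgb stood at 0.747 in DU101, 0.796 in DU102 and 0.742 in control, and Alb with Afp at 0.841, 0.742 and 0.722. These pairs are the chromosomal neighbours whose promoters are shown above. Pairs on different chromosomes also ran high, with Alb and Serpina1b at 0.745, 0.724 and 0.675, and Apoa1 and Apoa2 at 0.698, 0.663 and 0.690. Gc set itself apart in control, where its correlation was -0.29 with Rbp4, against 0.32 in DU101 and 0.31 in DU102. Gc had a value below 0 with 5 of the other 9 genes in control, though Gc lies on the chromosome of Alb and Afp.

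**Figure D2:**
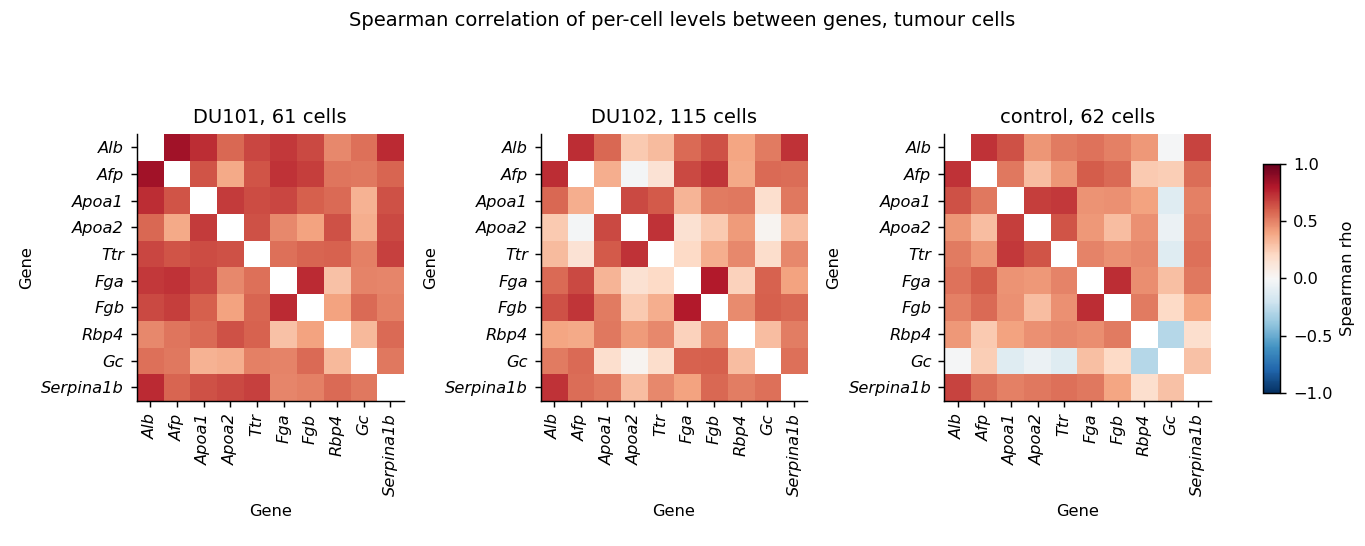
Spearman correlation of UMIs per 10000 between each pair of the 10 genes over tumour cells of DU101 (61 cells), DU102 (115) and control (62), with red above 0 and blue below (colour scale from -1 to 1). The Fga with Fgb and Alb with Afp squares are dark red in all 3 panels, and the blue squares in control lie in the row and column of Gc.

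Other hepatocyte genes were read as 2 wider lists. Of 49 other secreted plasma proteins, 45 had UMIs in tumour cells. The 5 highest in control were Trf, the iron carrier, at 1585, 2983 and 2814 CPM in DU101, DU102 and control, Apoc1, Fgg, C3 and Ambp. Fgg, the last chain of fibrinogen, was at 697.4, 922.3 and 801.0 CPM. Over control, DU101 had 2 higher and 12 lower of 40 measured (2.87% and 8.2% of all genes), with a median log2 ratio of -0.34 against -0.09 over all genes. DU102 had 10 higher and 1 lower of 41 (4.95% and 5.91% of all genes), with a median of 0.24 against -0.06. DU101 over DU102 had 2 higher and 21 lower of 41 (3.66% and 8.5% of all genes), with a median of -0.59 against -0.02. The 10 genes themselves had medians of -0.13, 0.46 and -0.51 in these comparisons. In medians, hepatocyte genes that are not secreted were nearer to all genes than the secreted list was. Their medians were -0.14 over 17 genes, -0.02 over 18 and -0.12 over 18. By size, 0 of them were higher and 4 lower in DU101 over control, and 2 and 5 in DU102 over control. In DU101 over DU102 these counts were 2 and 2, with the shares of all genes as above. In the non-secreted list of 24, Fabp1, a fatty acid binding protein, was the highest, at 726.8, 718.5 and 535.8 CPM, and Ass1, Hnf4a and Mat1a were among the next.

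Carry-over RNA was low and present in every immune type. All gated immune barcodes together had 141 CPM of the 10 genes in DU101, 249 in DU102 and 136 in control. Much of this was in few barcodes: 11, 7 and 6 barcodes with at least 50 UMIs of the 10 genes held 56.9, 54.1 and 46.2% of it. They were therefore listed apart. Without them the levels were 61.3 CPM (59.3 to 63.4) in DU101, 115 (112 to 118) in DU102 and 73.5 (71.1 to 76.0) in control, or 0.448, 0.850 and 0.591 UMIs per barcode. Tumour cells were 292-fold, 216-fold and 256-fold above this in CPM. Both sides were cut on these genes, tumour cells by a minimum of 4 of them and immune barcodes by leaving out the highest. The size of this gap is thus partly set by the cuts. Of the remaining barcodes 70.6, 51.3 and 63.7% had 0 UMIs of the 10 genes. With each barcode thinned to 1000 UMIs, leaving out 86, 55 and 26 shallower ones, 7.55% (6.98 to 8.16), 14.5% (13.6 to 15.4) and 9.16% (8.43 to 9.93) had any, with DU102 highest as before.

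The barcodes with at least 50 UMIs were chosen for these genes and for an immune gate, so that they hold RNA of both is no finding. Their medians were 38623 UMIs in DU101, 47839 in DU102 and 47654 in control, against 5364, 5292.5 and 6646 in the remaining immune barcodes. All 24 had Ptprc UMIs, and 10 of 11, 7 of 7 and 6 of 6 had H19. In 2 of the DU101 barcodes, gated as CD4 T and macrophage, Gc made up 47 of 73 and 37 of 61 UMIs, with 0 of Alb and 0 and 2 of H19. Scrublet, a doublet caller, marked 0 of them, while it marked 162, 95 and 119 of the remaining gated barcodes. In DU101 they lay in 7 of the gated types, in DU102 in 5 and in control in 4. The largest in DU101, gated as a patrolling monocyte, had 2492 UMIs of the 10 genes among 135509 in all, with 724 of Ttr and 3 of Ptprc. The largest in DU102, gated as an NK cell or ILC1, had 2788 among 139506, with 832 of Apoa2. The largest in control, gated as a neutrophil, had 1163 among 84327, with 293 of Ttr. Whether these are doublets was not tested further.

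In the 11 types with at least 50 barcodes in each library, the carry-over RNA varied less per barcode than in CPM. Without the barcodes listed apart, UMIs of the 10 genes per barcode lay between 0.394 and 0.558 in DU101, 0.712 and 1.12 in DU102 and 0.50 and 0.763 in control, a span of 1.42-fold, 1.57-fold and 1.53-fold. Single barcodes still weigh on these values. Over all gated types, 14, 12 and 9 remaining barcodes of 10 to 49 UMIs held 305, 245 and 178 UMIs of the 10 genes. The highest DU101 type, classical monocyte-like, had 42 of its 316 UMIs in 1 barcode. CPM varied more, by 3.84-fold, 3.18-fold and 3.70-fold between the lowest and the highest type. In CPM the highest type was Kupffer-like (the resident macrophages of liver), at 111 in DU101, 215 in DU102 and 130 in control. The lowest was cDC1-like (cross-presenting dendritic cells), at 28.9, 67.5 and 35.0 CPM. Yet cDC1-like barcodes had 0.449, 1.12 and 0.625 UMIs each, against 0.454, 0.820 and 0.596 in Kupffer-like barcodes. Of the 11 types, Kupffer-like barcodes were the shallowest in each library, at medians of 2305, 2183 and 2669 UMIs, and cDC1-like barcodes the deepest, at 15071, 15974 and 17086. The types thus differed in CPM along with their depth, and less in molecules per barcode.

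The other types lay between. CD8 T-like barcodes had 72.6, 123 and 74.8 CPM in DU101, DU102 and control, and CD4 T-like barcodes 92.6, 143 and 94.1. NK or ILC1-like barcodes had 52.1, 108 and 58.1 CPM. Among lymphocytes the highest were B-like barcodes, at 109, 165 and 120 CPM. Classical monocyte-like barcodes had 75.2, 91.7 and 62.7 CPM, patrolling monocyte-like 83.1, 156 and 80.8, and macrophage-like 71.2, 111 and 82.8. pDC-like barcodes had 57.2, 101 and 59.6 CPM, and neutrophil-like 52.2, 106 and 106. DU102 was highest in all 11 types, by a margin within the intervals in neutrophils. In the order of types by CPM, intervals of neighbours overlapped in 9 of 10 pairs in DU101, 8 of 10 in DU102 and 9 of 10 in control, and by UMIs per barcode in 10 of 10 in each.

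**Figure D3:**
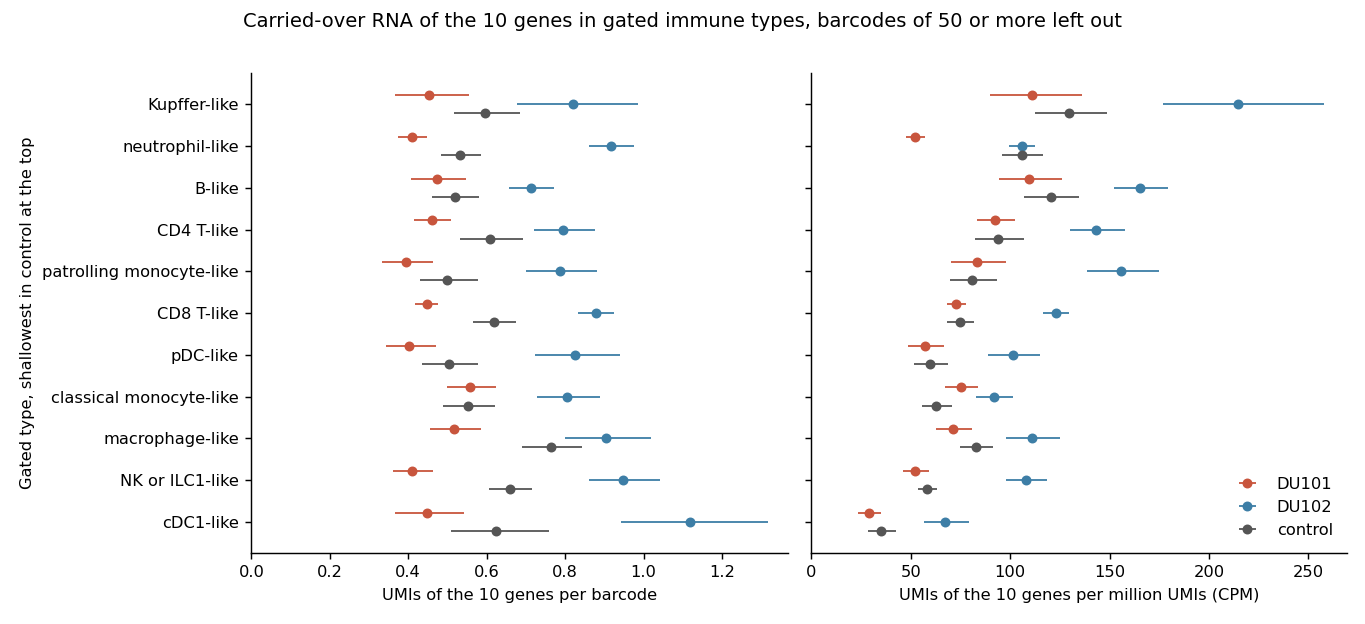
UMIs of the 10 genes per barcode (left) and as CPM (right) in 11 gated immune types, ordered by median depth in control, in DU101, DU102 and control, without barcodes that hold 50 or more of these UMIs (bars: exact Poisson 95% intervals). Per barcode the types of a library span less than in CPM, with DU102 between 0.712 and 1.12, while CPM falls towards the deep cDC1-like barcodes at the bottom.

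Gated barcodes were also split by depth, whatever their type. Between bins of 1000 to 1999 and 16000 to 31999 UMIs, the 10 genes came to 0.319 and 0.647 UMIs per barcode in DU101, 0.637 and 1.18 in DU102 and 0.517 and 0.804 in control. CPM in these bins was 205 and 31.0 in DU101, 401 and 55.5 in DU102 and 320 and 39.3 in control. Molecules per barcode were thus 2.03-fold, 1.86-fold and 1.55-fold higher in the deeper bin, with separate intervals, while CPM was lower there. Across the 11 types, Spearman correlations of median depth with CPM were -0.82, -0.84 and -0.89 and with UMIs per barcode -0.23, 0.52 and 0.55, as descriptions over types that share a library. The shallowest barcodes of the matrices, with 500 to under 1000 UMIs whatever their type, had 0.591 UMIs of the 10 genes each in DU101, 1.36 in DU102 and 0.768 in control.

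Single genes were thin per type. Afp, the highest in DU102, had 13 to 171 UMIs per type in DU101, 26 to 343 in DU102 and 14 to 97 in control. Its levels ranged over types from 6.89 to 17.2 CPM in DU101, 13.3 to 48.97 in DU102 and 4.90 to 19.2 in control. Alb ranged from 1.61 to 6.39, 8.66 to 30.1 and 2.67 to 12.8 CPM in the same order. Its lowest DU102 type was above its highest DU101 type. Apoa1 ranged from 3.03 to 13.1, 7.60 to 22.6 and 3.85 to 18.0 CPM and Apoa2 from 5.24 to 26.3, 9.03 to 28.2 and 6.30 to 22.6. Ttr ranged from 6.34 to 29.9, 9.50 to 30.1 and 6.999 to 26.7 CPM, and Rbp4 from 2.20 to 10.8, 3.33 to 24.5 and 2.78 to 14.7. These ranges of Apoa2 and Ttr overlapped broadly between libraries. Gc ranged from 0.551 to 8.36, 1.43 to 10.53 and 2.1 to 8.48 CPM and Fgb from 1.65 to 11.1, 5.70 to 11.6 and 1.40 to 10.9. Fga and Serpina1b were near the limit of counting, with as few as 2 and 1 UMIs in a DU101 type, 6 and 2 in DU102 and 5 and 4 in control.

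Carry-over RNA was highest in DU102. Over all gated barcodes the ratio of CPM to control was 1.04 (1.01 to 1.07) for DU101 and 1.83 (1.77 to 1.89) for DU102, and 0.568 (0.552 to 0.584) for DU101 over DU102. Without the barcodes listed apart these were 0.834 (0.796 to 0.874), 1.57 (1.4995 to 1.63) and 0.533 (0.511 to 0.556). Counted as UMIs per remaining barcode, the ratios were 0.758, 1.44 and 0.527, so that DU102 over control stayed under 1.5-fold. Over all gated barcodes, DU102 over control was under 1.5-fold with cells thinned to 1000 UMIs (1.46) and where the control cells were those having Y-linked RNA but not Xist (1.22). Without the barcodes listed apart, the same settings gave 1.61 and 1.69. With the 11 types weighted alike, DU101 over DU102 was 0.882 over all gated barcodes.

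By type the 2 ways of counting diverged. Over all gated barcodes DU102 over control ran from 0.244 (0.202 to 0.291) in cDC1-like to 13.3 (12.1 to 14.6) in NK or ILC1-like barcodes, with 6 of 11 types higher by size and 3 lower. DU101 over control ran from 0.104 (0.0844 to 0.128) in cDC1-like to 17.25 (14.9 to 20.1) in patrolling monocyte-like barcodes, with 3 higher and 3 lower. Without the barcodes listed apart, DU102 over control lay between 1.00 and 1.93 in all 11 types, with 7 higher and 0 lower. DU101 over control lay between 0.494 and 1.20, with 0 higher and 1, neutrophil-like, lower at 0.494 (0.432 to 0.564). DU101 over DU102 was below 1 in 11 of 11 and lower by size in 10, from 0.429 in cDC1-like to 0.820 in classical monocyte-like barcodes. The range over types was narrower without 24 barcodes. These were left out for their high counts of the same genes, so the narrowing is no finding. Types still differed, with neutrophil-like barcodes lowest in both comparisons with control. Counted per barcode, neutrophil-like barcodes were at 0.771 for DU101 and 1.72 for DU102 over control, while NK or ILC1-like barcodes were the lower ones in DU101 at 0.620 (0.533 to 0.720). The median depth of neutrophil-like barcodes was 3846.5 UMIs in DU101, 3341 in DU102 and 2962 in control. CPM is scaled by summed UMIs, in which deep barcodes weigh most, so these medians do not give the depth behind the CPM ratios.

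**Figure D4:**
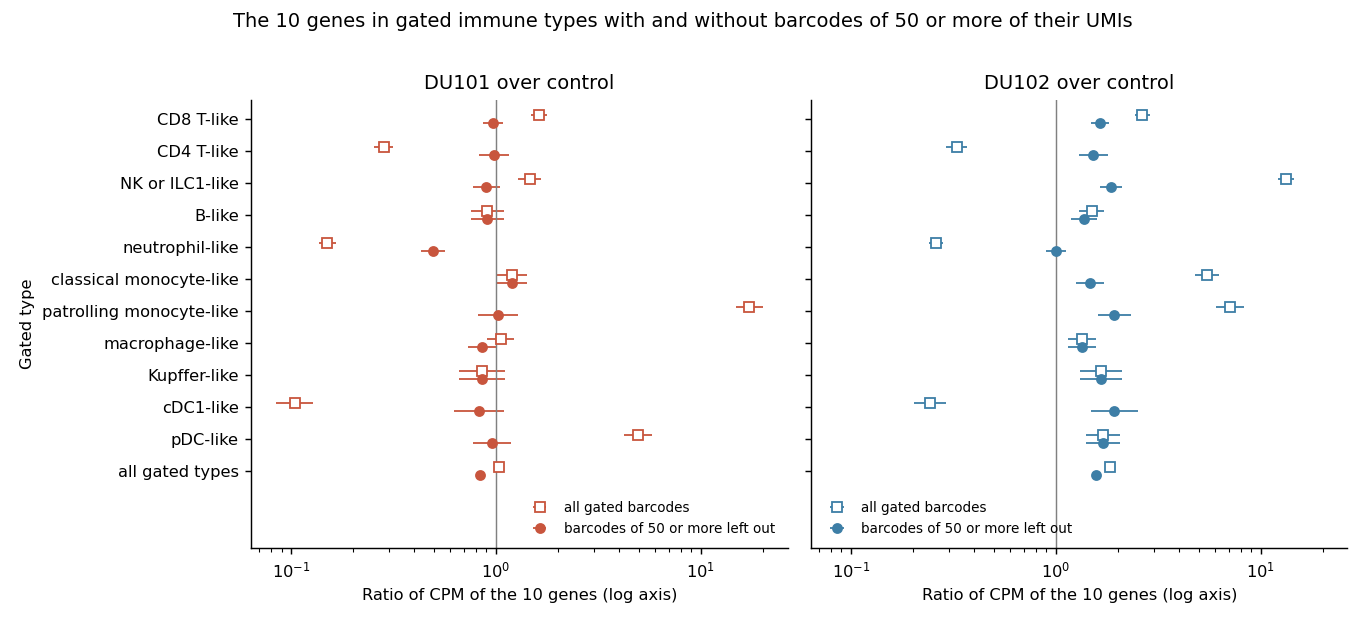
Ratio of the CPM of the 10 genes in DU101 (left) and DU102 (right) over control in 11 gated immune types and all gated types together (log axis, bars: exact 95% intervals), over all gated barcodes (squares) and without the 24 barcodes of 50 or more UMIs (circles). Squares run from 0.104 to 17.25 in DU101 and from 0.244 to 13.3 in DU102, while circles lie from 0.494 to 1.20 and from 1.00 to 1.93.

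The genes did not share the DU102 excess evenly. Over remaining immune barcodes, DU102 over control was 2.70 (2.29 to 3.18) for Alb, 2.35 (2.13 to 2.60) for Afp, 1.73 (1.45 to 2.06) for Fgb and 1.71 (1.46 to 2.01) for Rbp4. These 4 counted as higher and 0 as lower, where 5.18% and 6.42% of 14111 genes did so. Apoa1 was at 1.48 (1.32 to 1.66) and Serpina1b at 1.37 (1.10 to 1.72). The other 4 were nearer to 1: Ttr at 1.20 (1.08 to 1.33), Fga at 1.20 (0.945 to 1.51), Apoa2 at 1.14 (1.02 to 1.27) and Gc at 1.06 (0.886 to 1.28). Alb, Afp, Apoa1 and Rbp4 were higher in DU102 than in control in 11 of 11 types, and Gc in 6 of 11. Over all gated barcodes 7 of the 10 genes counted as higher and 0 as lower (5.47% and 6.23% of all genes).

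DU101 over control had 1 ratio above 1 and 9 below over remaining barcodes. The median log2 ratio of the 10 genes was -0.24, close to the median of -0.19 over all genes. By size 0 were higher and 2 lower, Fga at 0.449 (0.334 to 0.5997) and Apoa1 at 0.611 (0.533 to 0.701), where 5.29% and 12.6% of 14284 genes were. Both were higher than control in 0 of 11 types, as was Serpina1b. Fga was also the gene lower by size in DU101 tumour cells. Apoa2, at 1.03 (0.921 to 1.14), was the gene above 1. DU101 over DU102 was below 1 for all 10 genes and lower by size for 7 and higher for 0, where 4.13% of genes were higher and 8.05% lower, most so for Alb at 0.262 (0.2201 to 0.311). In this comparison the median log2 ratio was -1.01 for the 10 genes and -0.17 over all genes. Over all gated barcodes DU101 had 0 genes higher and 1 lower than control (5.24% and 12.5% of all genes), and 0 higher and 7 lower than DU102 (4.06% and 8.38%). Both DU102 comparisons share the same library, so the values for Alb are not independent.

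The make-up of the 10 genes differed between libraries, while immune types of a library could be compared only coarsely. Each gene's share of the 10-gene UMIs in a type had an interval that held the share over all remaining immune barcodes of that library in 105 of 110 gene and type pairs in DU101, 107 of 110 in DU102 and 108 of 110 in control. The pooled share includes the type itself, and a gene had as few as 1 UMI in a type, so many of these intervals could hardly leave it out. In DU101 the shares ran over types from 3.09 to 11.2% for Alb and from 1.90 to 7.84% for Gc. Alb made up 4.99% (4.30 to 5.76) in DU101, 10.1% (9.35 to 10.99) in DU102 and 5.89% (5.13 to 6.73) in control, and Afp 17.1% (15.9 to 18.4), 24.0% (22.8 to 25.1) and 15.9% (14.7 to 17.2). Apoa2 went the other way, at 21.7% (20.3 to 23.1), 12.8% (11.9 to 13.7) and 17.6% (16.4 to 18.95). In DU102 immune barcodes Alb and Afp thus had larger shares, and Apoa2 and Ttr (14.1%, against 19.4% in DU101 and 18.5% in control) smaller ones.

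These shares were not those of the gated tumour cells of the same library. In tumour cells Alb made up 9.10, 9.25 and 8.24% in DU101, DU102 and control, and Afp 17.3, 17.3 and 17.1%, nearly the same in each library. Intervals of immune and tumour shares were separate for 5 of 10 genes in each library. In DU101 these were Alb, Apoa2, Ttr, Rbp4 and Gc, in DU102 Afp, Ttr, Fga, Rbp4 and Gc, and in control Alb, Apoa2, Fgb, Rbp4 and Gc. As a level, tumour cells exceeded immune barcodes by 532-fold (458 to 622) for Alb in DU101, but by 197-fold (181 to 215) in DU102 and 358-fold (311 to 414) in control. For Afp these were 295-fold, 156-fold and 275-fold, and for Apoa2 224-fold, 224-fold and 225-fold. The size of these folds is partly set by the cuts on both sides, as stated above. Alb in tumour cells rests on few cells, as its top 10 cells showed. The barcodes of 500 to under 1000 UMIs had Alb at 5.48, 11.5 and 4.91% of the 10 genes, nearer to the immune barcodes than to tumour cells. Their Afp was at 14.2, 23.4 and 14.6%, near the immune share in DU102 and below both shares in DU101 and control. Not all genes lay on the immune side. In DU101 these barcodes had Apoa2 at 18.4% (tumour cells 16.6%, immune barcodes 21.7%) and Ttr at 22.3% (23.5% and 19.4%), both nearer to tumour cells.

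**Figure D5:**
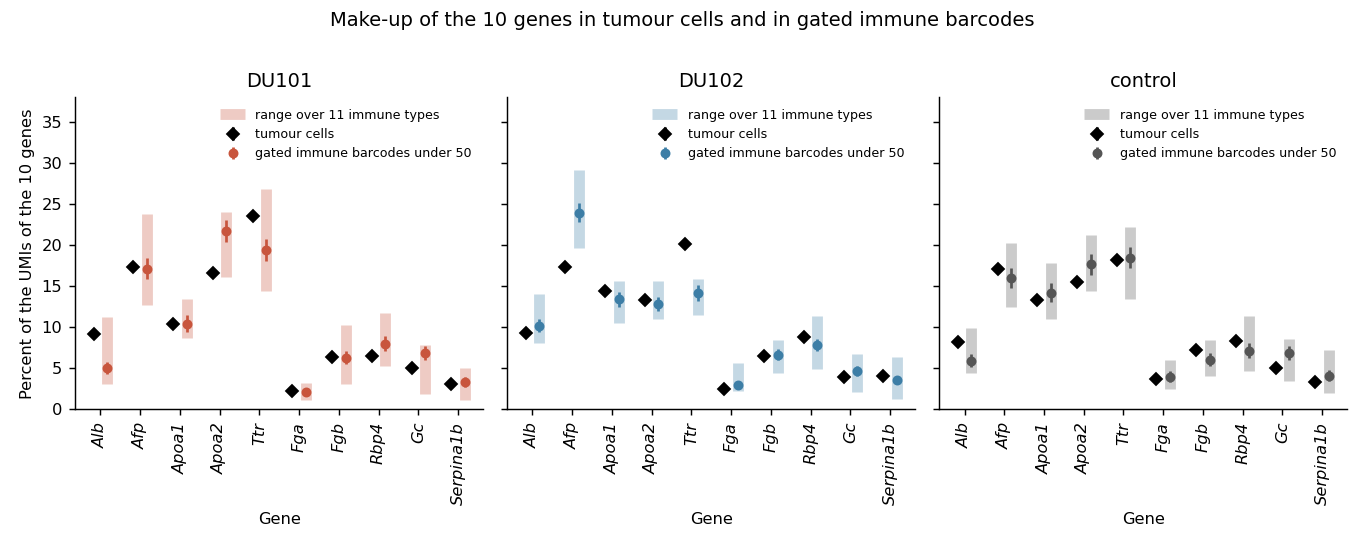
Each gene as percent of the UMIs of the 10 genes in tumour cells (diamonds) and in gated immune barcodes with under 50 of these UMIs (circles, bars: exact 95% intervals), with the range over 11 immune types as a band, in DU101, DU102 and control. Afp in DU102 shows the widest gap, at 24.0% in immune barcodes and 17.3% in tumour cells, and Alb in DU101 lies at 4.99% and 9.10%.

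Other RNA in the same immune barcodes had its own levels. In CD8 T-like barcodes S100a8 and S100a9 had medians of 4 UMIs in DU101, 8 in DU102 and 1 in control, and immunoglobulin RNA 7, 1 and 1. Plasma-like barcodes were 5.63% of gated barcodes in DU101, 0.982% in DU102 and 0.679% in control, and neutrophil-like barcodes 14.9, 17.0 and 13.6%. The library with the most tumour cells by share, DU102, was the one with the most carry-over RNA of the 10 genes, and the library with the most plasma-like cells, DU101, had the most immunoglobulin RNA in CD8 T-like barcodes. With 3 libraries this is a description.

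The genes most like the 10 in carry-over were found by rank. Over 33 points, the 11 types in each of 3 libraries, the CPM of the 10 genes was compared with that of 7795 other genes that had at least 100 UMIs in tumour cells. The 5 with the highest Spearman correlation were Bex1 (0.91), Igf2 (0.90), Ambp (0.89), Apom (0.89) and Spp2 (0.88). The points share libraries, depth and the barcodes listed apart. Igf2, a fetal growth factor, was at 780.8, 1084 and 1161 CPM in tumour cells of DU101, DU102 and control and at 13.0, 20.2 and 15.2 CPM in immune barcodes. Bex1, which is not a secreted protein, was at 1075, 1219 and 803.1 CPM in tumour cells and 11.5, 16.4 and 8.55 in immune barcodes. Ambp, the precursor of alpha-1-microglobulin, was at 640.2, 962.9 and 798.0 CPM in tumour cells and 6.19, 12.3 and 7.58 in immune barcodes. All 5 were far higher in tumour cells than in immune barcodes. They were chosen by a minimum of UMIs in tumour cells and by following the 10 genes with the barcodes listed apart included. That they were high in tumour cells is thus partly set by the choice and is no finding. The immune values given here are over all gated barcodes. Without the barcodes listed apart Igf2 was at 9.39, 13.7 and 10.9 CPM in DU101, DU102 and control.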

How the data were processed

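The deposited matrices hold raw UMI counts per gene and barcode. Per the file headers the authors made these counts with Cell Ranger 6.0.0, whereas version 2.1.1 and build mm10 stand in the submitters' processing notes. The deposited cluster tables were not used, since they assign no barcode to a cluster. The 10 members, the gene lists and the gates were chosen with earlier results of these data known, and the gate minimums were set after seeing these counts. Tumour cells followed the stated rule. Immune barcodes needed at least 200 genes, at most 10% mitochondrial UMIs and the markers of 1 type, and barcodes passing several gates (77 in DU101, 53 in DU102, 69 in control) were left out. UMIs were summed per library and type, since cells are not replicates, and scaled to CPM by all UMIs of the same barcodes. Ratios carry exact intervals from the binomial form of 2 Poisson counts, checked on simulated data. The genes named beside the 10 are from the top 5 of each list by control CPM, of which 1 is not reported here, and the 5 most alike. Scrublet in scanpy 1.11.5 called 2.88, 2.50 and 2.71% of scored barcodes in DU101, DU102 and control, and the called barcodes were kept. Python 3.11.15, numpy 2.4.6, scipy 1.17.1 and pandas 2.3.3 were used. Alternatives changed the gates, mitochondrial limit, scaling, weighting and thinning. Those on control cells by Xist and on the top cell of each library were added after seeing the data.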

Additional observations from a re-analysis of the deposited data

Results flagged for a closer look

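Over all gated barcodes, the ratio to control of the 10 genes went opposite ways in different types. In DU101 it was 17.25 in patrolling monocyte-like and 0.104 in cDC1-like barcodes, and in DU102 13.3 in NK or ILC1-like and 0.244 in cDC1-like barcodes. These differences between types were not tested, and without the barcodes of 50 or more UMIs the ratios were 1.03 and 0.827 in DU101 and 1.86 and 1.93 in DU102.

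Some RNA outside the 10 genes had a higher median than control in tumour cells. S100a8 and S100a9 had a median of 19 UMIs in DU101 and 18 in DU102, against 4 in control. Igkc, Jchain and Ighm had a median of 22 in DU101, against 2 in control. Their median in DU102 was also 2, and in summed CPM they were at 492 in DU101, 83.3 in DU102 and 3459 in control, where 1 cell held 11283 UMIs. In barcodes of 500 to under 1000 UMIs, the 10 genes had 1.36 UMIs each in DU102, against 0.768 in control.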

How the results depend on the processing

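Of 63 alternative values of the summed ratios of the 10 genes, 16 moved by less than counting error and 8, all for DU101 over control, lay on the other side of 1. For tumour cells of DU101 over control (0.951), the value was 0.940 at the higher UMI minimum, 0.876 with no Ptprc UMI, 0.977 at 200 or more UMIs of the 4 gate genes, 0.9251 at 10% mitochondrial UMIs, 0.833 as mean UMIs per cell, 1.02 with median-of-ratios size factors, 1.02 with cells weighted alike, 0.909 against control cells lacking Xist and 0.972 without each top cell. For DU102 over control (1.32) the same settings gave 1.10 with no Ptprc UMI, 1.37 by the mitochondrial limit, 1.01 per cell, 1.39 with size factors, 1.36 with cells alike, 1.26 against control cells lacking Xist and 1.26 without top cells. For DU101 over DU102 (0.720) they gave 0.799 with no Ptprc UMI, 0.742 at 200 UMIs, 0.677 by the mitochondrial limit, 0.827 per cell, 0.733 with size factors, 0.748 with cells alike and 0.769 without top cells. For immune barcodes of DU101 over control (1.04) the value was 1.24 at 5% mitochondrial UMIs, 0.834 without barcodes of 50 or more UMIs, 1.40 with types alike, 0.833 with cells alike, 0.946 per cell, 0.824 thinned, 1.19 with size factors, 0.695 against control cells lacking Xist and 0.903 with both. For DU102 over control (1.83) it was 1.70 at 5% and 2.05 at 20% mitochondrial UMIs, 1.57 without those barcodes, 1.58 with types alike, 1.57 with cells alike, 1.68 per cell, 1.46 thinned, 1.22 against control cells lacking Xist and 1.69 with both. For DU101 over DU102 (0.568) it was 0.730 at 5% and 0.505 at 20% mitochondrial UMIs, 0.533 without those barcodes, 0.882 with types alike, 0.531 with cells alike and 0.639 with size factors. Of 440 values of single genes against control, 57 lay on the other side of 1, mostly for ratios near 1 (45 for DU101 over control, 12 for DU102). In 2 of them the ratio had counted as higher by size, both for DU102 over control in immune barcodes: Apoa2 at 0.975 when thinned and Rbp4 at 0.841 against control cells lacking Xist. The cause was not tested. No paired analysis was possible because each group is 1 library.

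Depth limits single genes per type to few UMIs. Intervals cover counting error only and not the spread between animals. Control cells lacking Xist here also carry Y-linked RNA.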
